A study of Mus musculus with 14 samples.

Results

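The homing and adhesion receptors by which haematopoietic stem cells (HSCs) find and hold their place in the bone marrow were followed in single mouse HSCs. They were Cxcr4, Itga4, Itga6, Itgb1, Cd44, Cd47, Selplg and Cd164. These 8 genes were chosen by name among the 25832 gene IDs of 4 MARS-Seq count tables, and all 8 were present and passed the filter on low counts that left 6541 genes for testing. MARS-Seq is a plate-based single-cell method that counts molecules near the 3′ end of transcripts by unique molecular identifiers (UMIs). The series, of 14 samples in all, studied HSCs of PHF19 KO mice. Phf19 is a Polycomb-associated factor that binds histone marks and works with the complex that methylates lysine 27 of histone H3.

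The groups compared are KO cells and WT cells, named by the prefix of each cell name, in the plates 350W, 351W, 352W and 353W. The series defines KO as PHF19 KO mice. Its controls elsewhere carry floxed alleles, and whether the WT cells of these plates do so too is not given in the sources used here, nor are the Cre line, the age or the number of mice. All cells came from bone marrow depleted of lineage-positive cells and were labelled as CD150-positive and CD48-negative. Every plate held 96 wells of each genotype, KO cells always in the higher well numbers and WT cells in the lower ones, so genotype and well position cannot be told apart. Whether plates stand for separate animals is not given either. The p-values between KO and WT cells cover the spread among these plates alone, which may be technical.

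Cells with 500 or more UMIs were kept, which left 335 KO cells and 381 WT cells and removed 49 KO wells and 3 WT wells. Summed over cells, a plate and genotype held between 220821 and 510791 UMIs. In plates 350W to 353W, Phf19 itself had 0, 2, 1 and 0 UMIs in KO cells, against 1, 0, 0 and 5 UMIs in WT cells, too few to check the genotypes, and the deleted stretch is not named. The plates differed in the markers of the sort. Slamf1, which encodes CD150, had 1, 5, 1 and 0 UMIs in KO cells and 4, 16, 0 and 0 UMIs in WT cells. Cd48 had 1, 0, 49 and 11 UMIs in KO cells and 0, 0, 62 and 24 UMIs in WT cells, so plates 352W and 353W held Cd48 RNA although labelled CD48-negative. The same plates held most of the RNA of Flt3, a receptor of multipotent progenitors, with 4, 2, 81 and 59 UMIs in KO cells against 0, 12, 117 and 87 UMIs in WT cells. RNA of Ighm, the immunoglobulin heavy chain of B cells, stood at 0, 0, 1054 and 184 UMIs in KO cells against 4, 0, 2253 and 798 UMIs in WT cells. Summed CPM of 19 HSC markers ranged from 2133 to 3956 in KO cells and from 2266 to 3960 in WT cells, with the lower values in plates 352W and 353W. The part that these plate differences have in the results below was not tested.

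The chemokine Cxcl12, made by stromal cells, draws and retains cells through the receptor Cxcr4, and integrins, heterodimers of an alpha and a beta chain, bind matrix and endothelial counter-receptors. Selectin ligands and hyaluronan receptors slow circulating cells on marrow vessels, and Cd47 protects HSCs from being engulfed by macrophages.

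By level, the receptors fell into a short order. Levels are UMI counts of a plate and genotype scaled to a common library total (CPM), and since 1 molecule gives 1 UMI near its 3′ end, they were compared between genes without a length correction. Mean levels over the 8 sums of plate and genotype were 174 ± 59.7 CPM for Cd47, 114 ± 42.8 CPM for Selplg, 69.4 ± 28.3 CPM for Itga6 and 67.7 ± 59.1 CPM for Itga4 (SD, n = 8 sums). Cd44 followed with 55.7 ± 30.6 CPM, Itgb1 with 55.2 ± 16.0 CPM, Cd164 with 41.1 ± 8.34 CPM and Cxcr4 with 37.5 ± 18.8 CPM. Cd47 lay above Selplg in 7 of 8 sums, with a mean difference of 59.9 CPM (SD 55.7). Among the other neighbours the higher gene was above the lower in 3 to 6 of 8 sums and the SD of the difference exceeded its mean, so their order was not clear of the spread. Cd47 was above 86.5% of the 6541 tested genes and Cxcr4 above 15.2%. Together the 8 receptors took 505, 608, 602 and 667 CPM in KO cells of plates 350W to 353W and 465, 708, 639 and 720 CPM in WT cells. The KO sum was thus above the WT sum in plate 350W alone, and the ranges of the genotypes overlapped.

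**Figure D1:**
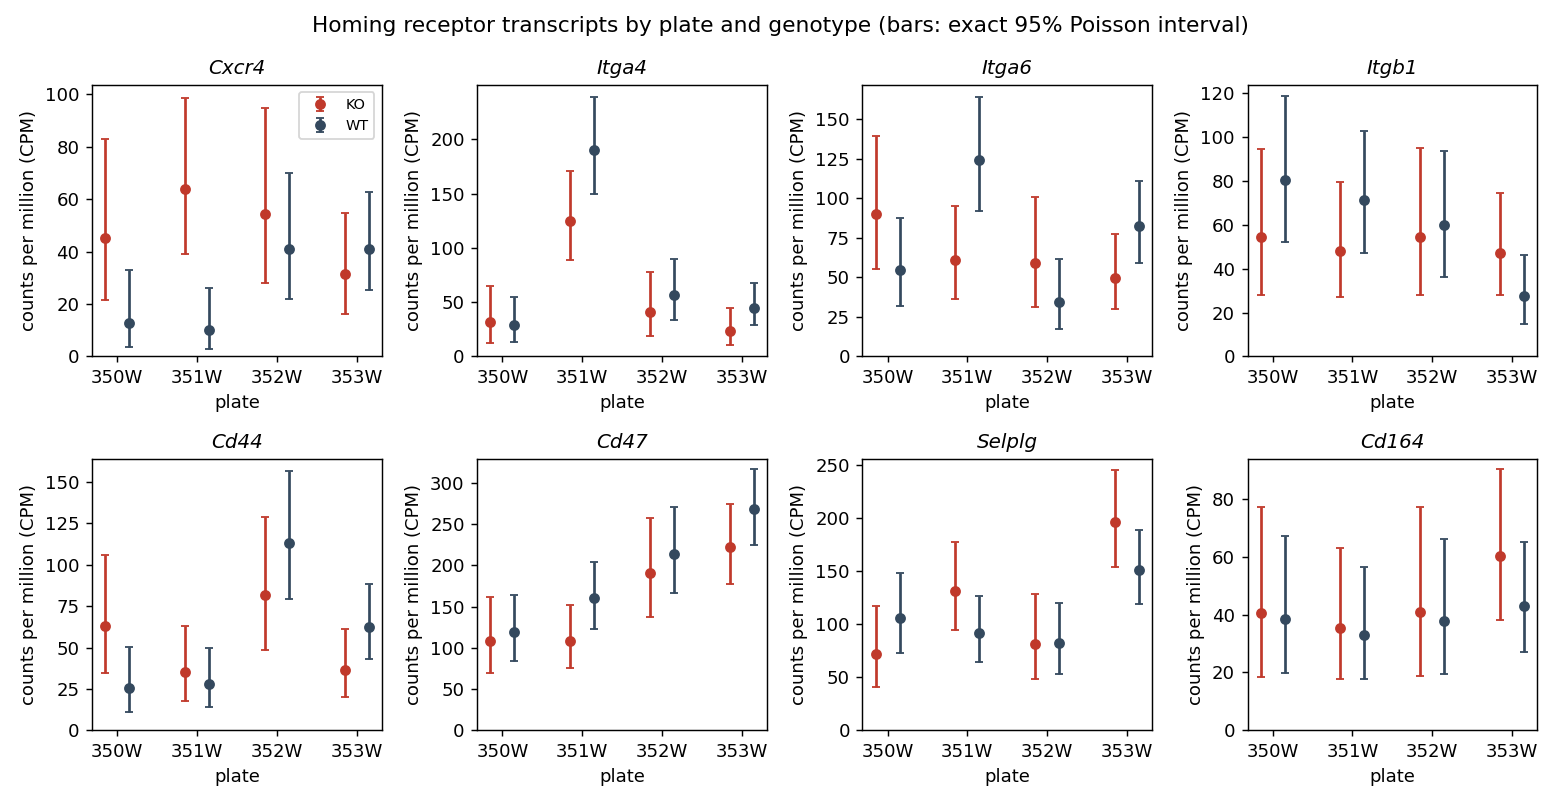
Levels of the 8 receptors in CPM (y axis) by plate (x axis), KO cells left of WT cells, each point a sum over the cells of 1 plate and genotype with its exact 95% Poisson interval, which covers counting error only. Itga4 stands highest in plate 351W, at 125 CPM in KO cells and 190.3 CPM in WT cells, and Cd47 highest in plate 353W, at 222 CPM in KO cells and 268 CPM in WT cells.

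Cxcr4 (chr1:128588199-128592299 in GRCm38.p6, as for all positions here), the receptor of Cxcl12, had the largest fitted change of the 8 in either direction, and it did not pass the test. Its RNA was scarce. In plates 350W to 353W it had 10, 20, 12 and 12 UMIs in KO cells and 4, 4, 13 and 21 UMIs in WT cells. Levels were 45.1, 64.0, 54.3 and 31.4 CPM in KO cells against 12.8, 10.1, 40.9 and 41.1 CPM in WT cells. KO cells were higher in 3 plates and lower in plate 353W, and the ranges of the genotypes overlapped. WT cells were lowest in plates 350W and 351W, the plates nearly free of Cd48 and Ighm RNA. The mean was 48.7 ± 13.9 CPM in KO cells and 26.3 ± 17.1 CPM in WT cells (SD, n = 4 plates each). The fitted log2 fold change was 0.88 (SE 0.439, 95% interval −0.05 to 1.80), with an edgeR adjusted p of 0.801. It was 0.40 without plate 351W and 1.47 without plate 353W, and in neither case did it pass.

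The sequences upstream of Cxcr4 and Itga4 are shown because these receptors had the largest fitted changes in each direction. Each is the 250 bases before the transcript's start, 5′ to 3′ on the gene's strand, from RefSeq (GRCm38.p6), whose promoter table held 6 of the 8 genes. Capitals mark matches on either strand to the GC box GGGCGG or the TATA box TATAAA. The Cxcr4 sequence is chr1:128592300-128592549 on the minus strand and the Itga4 sequence is chr2:79255176-79255425 on the plus strand.
Cxcr4: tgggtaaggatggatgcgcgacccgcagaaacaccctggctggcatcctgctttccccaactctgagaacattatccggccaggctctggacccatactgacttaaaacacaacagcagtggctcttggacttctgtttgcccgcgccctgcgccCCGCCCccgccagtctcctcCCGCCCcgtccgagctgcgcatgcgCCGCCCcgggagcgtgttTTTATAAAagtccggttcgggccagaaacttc
Itga4: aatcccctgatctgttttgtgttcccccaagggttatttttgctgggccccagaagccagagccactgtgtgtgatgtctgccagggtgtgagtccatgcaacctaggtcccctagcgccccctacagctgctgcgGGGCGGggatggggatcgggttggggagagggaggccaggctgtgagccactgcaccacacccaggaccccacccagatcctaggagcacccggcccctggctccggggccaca
The Cxcr4 sequence held 3 GC boxes and 2 overlapping matches to the TATA box, 1 on each strand. The Itga4 sequence held 1 GC box and no TATA box. Over all 32851 promoters of the table, 32.7% held the GC box and 12.4% the TATA box. CpG dinucleotides were at 0.838 of the number its base composition gives in the Cxcr4 sequence and at 0.234 in the Itga4 sequence, with 61.2% and 64.0% of bases being G or C. The median share of G and C over all promoters was 52.4%. A match is a description of letters and does not show a bound site.

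The 3 integrin chains had fitted changes below 0, none past the test. Itga4 (chr2:79255426-79333114) encodes the alpha 4 chain, which with the beta 1 chain forms VLA-4, the receptor of Vcam1. It had 31.6, 125, 40.8 and 23.5 CPM in KO cells against 28.9, 190.3, 56.7 and 45.0 CPM in WT cells. Plate 351W stood far above the other plates in both genotypes, and KO cells were lower in 3 plates and slightly higher in plate 350W. Behind these levels stood 7, 39, 9 and 9 UMIs in KO cells and 9, 75, 18 and 23 UMIs in WT cells. In plate 351W, 36.0% of KO cells and 51.0% of WT cells held an Itga4 UMI. The fitted log2 fold change was −0.55 (SE 0.268, 95% interval −1.11 to 0.02; edgeR adjusted p = 0.801). Itga4 overlaps Cerkl in the RefSeq annotation, and strand use in counting is not given in the sources used here. Cerkl had 45.1, 44.8, 36.2 and 36.6 CPM in KO cells and 25.7, 38.1, 25.2 and 27.4 CPM in WT cells. WT cells thus had their highest Cerkl level in plate 351W, as for Itga4, and KO cells had about the same level in plates 350W and 351W. Between genotypes, Cerkl was higher in KO cells in all 4 plates, whereas Itga4 was lower in KO cells in 3. In plate 351W Cerkl had 14 UMIs in KO cells and 15 in WT cells. The part of Cerkl in the Itga4 counts was not tested.

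Itga6 (chr2:71786886-71858427), the alpha 6 chain of laminin receptors, had 90.2, 60.8, 58.9 and 49.7 CPM in KO cells against 54.5, 124, 34.6 and 82.2 CPM in WT cells. KO cells were higher in plates 350W and 352W and lower in the other plates. Its fitted log2 fold change was −0.23 (SE 0.310, 95% interval −0.88 to 0.42; edgeR adjusted p = 0.953), and 0.13 without plate 351W. Itgb1 (chr8:128685654-128733579) encodes the beta 1 chain that pairs with both alpha chains. KO cells held 54.1, 48.0, 54.3 and 47.1 CPM, on 12, 15, 12 and 18 UMIs. WT cells held 80.2, 71.0, 59.8 and 27.4 CPM, on 25, 28, 19 and 14 UMIs. Counting error is wide at such counts, with an exact 95% Poisson interval of 28.0 to 94.5 CPM for KO cells of plate 350W. The SD over plates was 3.89 CPM about a mean of 50.9 in KO cells and 23.0 CPM about a mean of 59.6 in WT cells. A test of this difference in spread was not made. The fitted log2 fold change of Itgb1 was −0.14 (SE 0.305, 95% interval −0.78 to 0.51; edgeR adjusted p = 0.963), and its sign turned without plate 350W (0.0058) or plate 351W (0.030). Itgb1 had the lowest mean of the 3 integrin chains in KO cells and in WT cells.

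Cd44, Selplg and Cd164 act in rolling and adhesion. Cd44 (chr2:102811141-102901669), the hyaluronan receptor, had 63.1, 35.2, 81.5 and 36.6 CPM in KO cells against 25.7, 27.9, 113 and 62.6 CPM in WT cells. KO cells were higher in plates 350W and 351W and lower in plates 352W and 353W. The fitted log2 fold change was −0.06 (SE 0.334, 95% interval −0.76 to 0.64; edgeR adjusted p = 0.989), and its sign turned without plate 352W (0.15) or plate 353W (0.23).

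Selplg (chr5:113817798-113832528), which encodes the P-selectin ligand PSGL-1, had 72.2, 131, 81.5 and 196 CPM in KO cells against 106, 91.3, 81.8 and 151 CPM in WT cells. Both genotypes were highest in plate 353W, and the direction between them differed among plates. Its fitted log2 fold change was 0.18 (SE 0.209, 95% interval −0.26 to 0.62; edgeR adjusted p = 0.946). Cd164 (chr10:41519500-41531042), a sialomucin of haematopoietic progenitors, had the smallest SD of the 8 over plates and genotypes. It had 40.6, 35.2, 40.8 and 60.2 CPM in KO cells against 38.5, 33.0, 37.8 and 43.1 CPM in WT cells. KO cells were higher in all 4 plates, with log2 ratios of 0.08, 0.09, 0.11 and 0.48, and the ranges of the genotypes overlapped. The fitted log2 fold change was 0.23 (SE 0.318, 95% interval −0.45 to 0.90; edgeR adjusted p = 0.953).

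Cd47 (chr16:49851328-49912503), the ligand of the macrophage receptor Sirpa, was the most abundant of the 8 and gave the narrowest interval. It had 108, 109, 190.2 and 222 CPM in KO cells against 119, 159.9, 214 and 268 CPM in WT cells. KO cells were lower in all 4 plates, and in both genotypes plates 352W and 353W were above plates 350W and 351W. The mean was 157 ± 57.9 CPM in KO cells and 190 ± 65.1 CPM in WT cells (SD, n = 4 plates each). The fitted log2 fold change was −0.28 (SE 0.157, 95% interval −0.62 to 0.05; edgeR adjusted p = 0.837), so a fall to less than 0.652 of the WT level, or a rise above 1.03 times it, lay outside the interval.

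No receptor passed the test between KO and WT cells. By edgeR's quasi-likelihood test with the plate as a block, 0 of 8 passed an adjusted p of 0.05 and 0 of 8 an unadjusted p of 0.05, and 0 passed by DESeq2. Over all 6541 genes, 0.0917% were called by edgeR (0.0306% higher and 0.0612% lower in KO cells) and 0.0153% by DESeq2. By edgeR, 6.07% of all genes passed an unadjusted p of 0.05, so the count of 0 among the 8 is near the background. Without the block, edgeR called 0 genes in all, and 1.31% passed an unadjusted p of 0.05. The median log2 fold change of the 8 was −0.10, with 3 above 0 and 5 below, beside a median of −0.0038 over all tested genes. Cd164 was higher in KO cells in every plate, as were 7.83% of all tested genes, and Cd47 was lower in every plate, as were 7.75%. No receptor had KO and WT ranges that did not overlap, a pattern of 1.42% of tested genes. B cell markers found in the tables summed to 45.1, 134, 8441 and 1083 CPM in KO cells and 93.0, 129, 11788 and 3324 CPM in WT cells. They were lower in KO cells in 3 plates and slightly higher in plate 351W, and their part in the results was not tested. When wells with more than 100 immunoglobulin UMIs were left out, the fitted log2 change was 0.91 for Cxcr4, −0.56 for Itga4 and −0.28 for Cd47. In sums over cells, fewer cells holding a transcript and less RNA in each cell cannot be told apart. Shares of cells with a UMI do not separate them either at this depth, where most such cells hold 1 UMI, and follow as another view of the level.

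**Figure D2:**
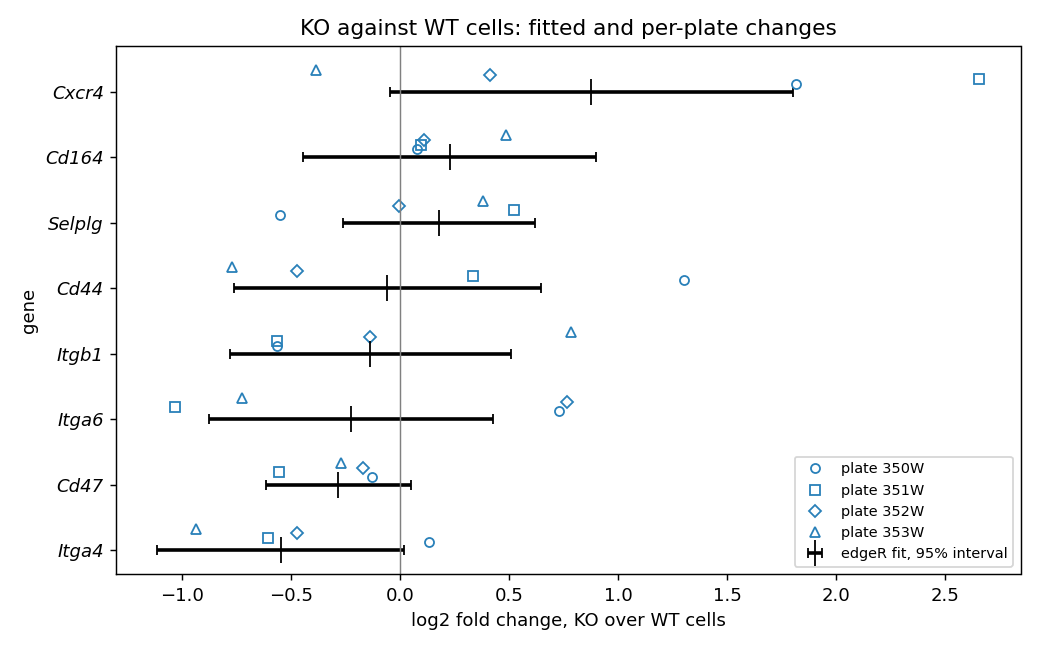
Log2 fold change of KO over WT cells (x axis) for the 8 receptors (y axis), with the edgeR estimate as a tick, its 95% interval as a bar, and open symbols for the ratio of CPM in each plate. All 8 intervals include 0, and the plates of Cxcr4 run from −0.39 in plate 353W to 2.66 in plate 351W.

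KO cells held fewer UMIs per cell in every plate, with medians of 2230, 3120, 2552.5 and 4483.5 in plates 350W to 353W, against 3077, 3806, 2920 and 5006 in WT cells. To compare shares of cells, each cell was therefore thinned to 1500 UMIs. This left 84, 83, 64 and 76 KO cells and 94, 95, 94 and 93 WT cells. Cxcr4 was then detected in 4.76%, 7.23%, 7.81% and 5.26% of KO cells, against 1.06%, 1.05%, 3.19% and 4.30% of WT cells. The share was higher in KO cells in all 4 plates of this draw, on 4 to 6 KO cells and 1 to 4 WT cells a plate. The mean difference was 3.86 percentage points (SD 2.19, n = 4 plates; two-sided exact sign-flip permutation test, p = 0.12, the smallest that 4 plates allow). Averaged over all possible draws, the difference was 3.05 points and KO cells were higher in 3 of 4 plates. With cells thinned to 1000 UMIs instead, the difference was 1.41 points, with KO cells higher in 3 plates. The unthinned shares averaged 11.8% of KO cells and 6.83% of WT cells, again higher in KO cells in 3 plates. A share higher in KO cells in all 4 plates was seen for 6.48% of tested genes.

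Itga4 was detected after thinning in 2.38%, 14.5%, 1.56% and 2.63% of KO cells, against 4.26%, 25.3%, 8.51% and 5.38% of WT cells. The share was lower in KO cells in all 4 plates of the draw, over all draws and without thinning, as it was in the draw for 7.51% of tested genes. Its mean difference was −5.59 points in the draw (SD 4.12, n = 4 plates; exact sign-flip permutation test, two-sided p = 0.12) and −3.87 points over all draws. Cd47 was detected in 13.1%, 12.05%, 21.9% and 23.7% of KO cells, against 13.8%, 18.9%, 22.3% and 28.0% of WT cells. Its mean difference was −3.09 points (SD 3.07, n = 4 plates; exact sign-flip permutation test, two-sided p = 0.12). Over all draws, Cd47 was lower in KO cells in 3 plates and higher in plate 350W. At 1000 UMIs its difference was −0.13 points, with KO cells lower in 2 of 4 plates. No other receptor moved in 1 direction in every plate of the draw. Their mean shares ran from 4.96% to 14.7% in KO cells and from 5.33% to 13.9% in WT cells. For Itga6 the sign depended on thinning, with a difference of 0.575 points in the draw, −1.68 points over all draws and −3.96 points without thinning. Without thinning, when KO cells held fewer UMIs per cell in every plate, Itga6 was lower in KO cells in all 4 plates. Cd164 was higher in KO cells in all 4 plates over all draws (0.965 points), but lower in all 4 at 1000 UMIs (−1.71 points).

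**Figure D3:**
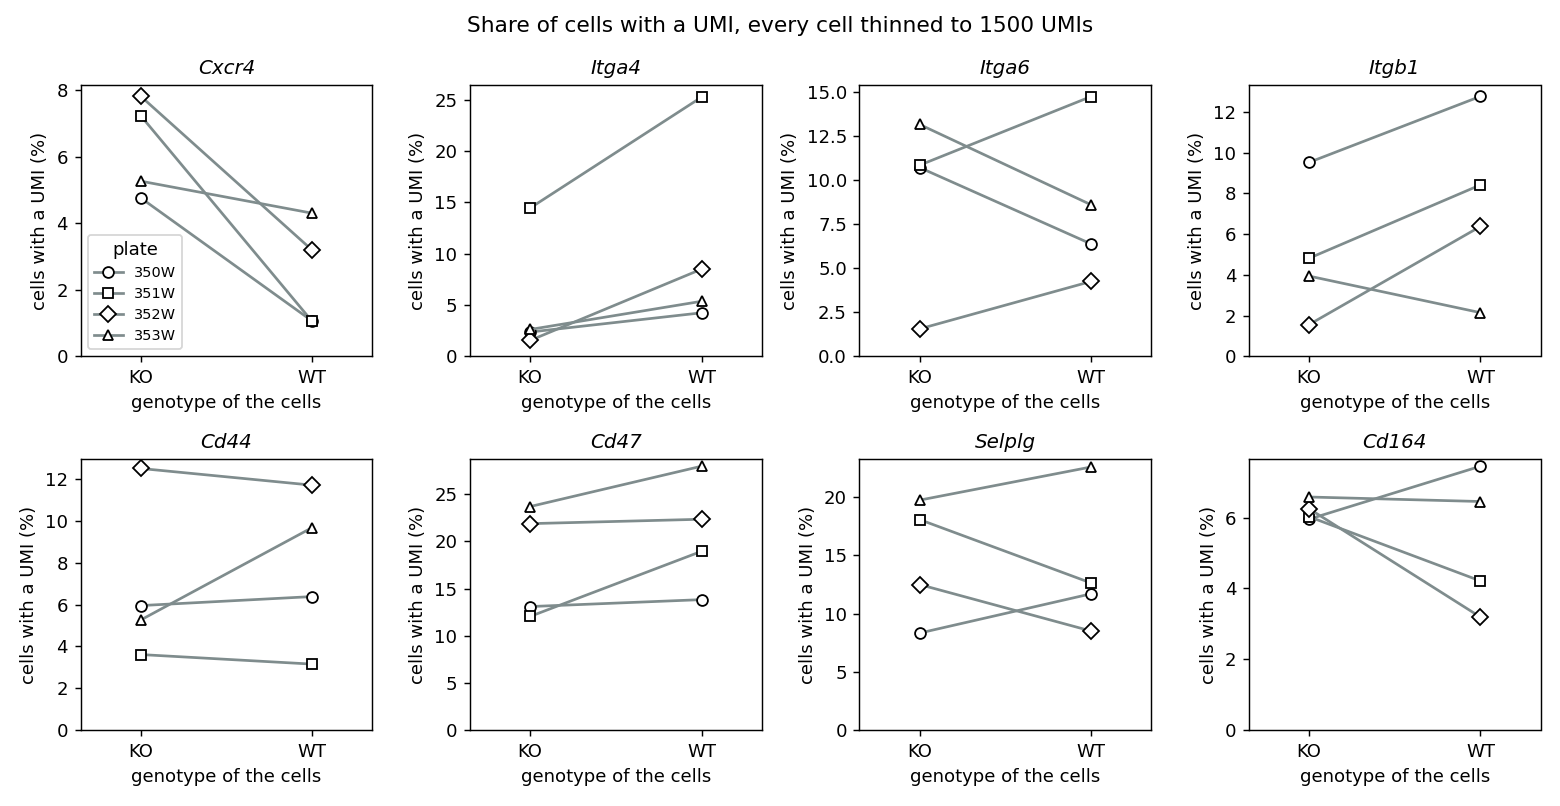
Share of cells with at least 1 UMI of each receptor (y axis, percent) in KO cells on the left and WT cells on the right, after thinning each cell to 1500 UMIs, with 1 line per plate. Lines of Cxcr4 all run down from KO to WT, those of Itga4 and Cd47 all run up, and the other 5 receptors have lines in both directions.

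Itga4, Cd47 and Cd44 differed among plates. In the same model, 3 of the 8 receptors differed among plates (edgeR F test of the plate terms), where 27.3% of all tested genes did. The count of 3 among the 8 is thus near the background. Their edgeR adjusted p was 6.59e-05 for Itga4, 0.00196 for Cd47 and 0.0276 for Cd44. The values of each plate in this test are its KO and WT sums, which share the plate. The test thus compares these plates as libraries, and technical differences and differences of the cells cannot be told apart. Itga4 was high in plate 351W, and without that plate its adjusted p among plates was 0.413. Cd47 was lowest in plates 350W and 351W and highest in plate 353W, and it still passed with any 1 plate left out. Cd44 was highest in plate 352W in both genotypes, and its adjusted p was 0.0647 without plate 351W and 0.571 without plate 352W. Selplg lay at the threshold (edgeR adjusted p = 0.0536), and passed when library totals were used for scaling (0.0279). Cxcr4, Itga6, Itgb1 and Cd164 had adjusted p of 0.307 to 0.727 in this edgeR test. Plates 352W and 353W, in which Cd47 was high, are those with Flt3, Cd48 and Ighm RNA, and the part of that in the plate differences was not tested.

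After thinning, each receptor was detected in a minority of cells, and pairs of receptors shared few cells. How many shared cells such sparse detection alone gives was not computed. Before thinning, 175 of 716 cells held no UMI of any of the 8, and 6 was the most found in 1 cell. After thinning, KO cells held a mean of 0.607, 0.771, 0.656 and 0.803 receptors in plates 350W to 353W, against 0.638, 0.884, 0.681 and 0.871 in WT cells. The KO mean was lower than the WT mean in every plate of this draw, and the ranges over plates overlapped. This mean was not computed over all draws, where shares of single receptors went in both directions within each plate. The chains that form heterodimers were set side by side. Itga4 and Itgb1 were seen together in 5 of 683 thinned cells, beside 58 cells with Itga4 and 44 with Itgb1, with a median Pearson correlation of 0.075 over the 8 sets of plate and genotype, the second highest of all 28 pairs. Thinned to 1000 UMIs, the same pair shared 3 cells and its median correlation was −0.026. Itga6 and Itgb1 shared 4 cells and had a median correlation of −0.03. The highest pair was Itgb1 with Cd47 at 0.122, which was −0.012 when cells were thinned to 1000 UMIs instead. Correlations this weak in sparse counts from shared libraries are given as a description only.

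The genes whose counts varied most like Cd47 across cells were Nprl3, Gata4 and Sfmbt1, with median correlations of 0.171, 0.163 and 0.148 over the 8 sets, among 4795 genes compared. For Selplg they were Bud23, Ndufab1 and Ryr2 at 0.202, 0.175 and 0.171, and for Itga6 Lrrc42, Mlec and Suclg1 at 0.185, 0.158 and 0.139. Each of these 9 genes had a correlation below 0 in at least 1 set, and Nprl3, Sfmbt1, Bud23 and Lrrc42 were above 0 in 5 of 8 sets. They are the highest of 4795 genes in sparse counts. How high the highest would be without any likeness was not computed, so they are named as a description only.

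Cells holding a UMI of any of 12 G2/M phase genes were compared with the rest within plates, after thinning. Cxcr4 was higher in the 243 cells with such a UMI than in the 440 cells without, in 4 of 4 plates. Levels were 133, 49.4, 80.5 and 34.5 CPM in cells with a G2/M phase UMI, against 24.5, 21.5, 26.7 and 25.2 CPM in cells without. These rest on 20 UMIs against 16 UMIs in all. Over tested genes 5.2% were higher in G2/M cells in every plate, and at 1000 UMIs per cell Cxcr4 was no longer among them, nor was any other of the 8. In WT cells alone, it was higher in 2 of the 3 plates with 10 or more cells on each side. Cd47 averaged 191 ± 74.4 CPM in G2/M cells and 140 ± 29.8 CPM in the others (SD, n = 4 plates) and was higher in 3 plates.

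Cells with a Flt3 UMI could be set against cells without only in plates 352W and 353W, with 90 and 237 cells. Cd44 had 138 and 83.3 CPM in cells with Flt3 in these plates, against 73.3 and 58.4 CPM in cells without, on 16 UMIs against 23 UMIs. Cd47 had 218 and 292 CPM in cells with Flt3, against 200.0 and 189.8 CPM in cells without. At 1000 UMIs Cd44 was again higher with Flt3 in both plates, on 8 UMIs against 12 UMIs. Cd47 then averaged 239.8 CPM in cells with Flt3 and 256 CPM in cells without, with 1 plate in each direction. In WT cells alone Cd44 was higher in both plates and Cd47 in 1 of them. Selplg had 69.0 and 104 CPM in cells with Flt3, against 73.3 and 189.8 CPM in cells without, so the gap lay in plate 353W. At 1000 UMIs, and in WT cells alone, Selplg was higher with Flt3 in 1 plate and lower in the other. No test was made over these 2 plates, and the share of all tested genes with 1 direction in both was not computed. Cells with UMIs of both Hlf and Mecom, transcription factors of HSCs, reached 10 cells in plate 350W only. These 15 cells held 0 to 2 UMIs of each receptor, too few to compare with the other cells.

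No other gene of the same pathways passed the test between the genotypes either. Of 170 genes in 8 lists, 156 were in the tables and 68 were tested. None passed an adjusted p of 0.05 in either direction by edgeR, and none passed by DESeq2. By edgeR, 2 passed an unadjusted p of 0.05, where 6.07% of all tested genes did. Their median log2 fold change was −0.03, with 27 above 0 and 41 below, beside −0.0038 over all tested genes. Among plates 24 of the 68 differed by edgeR, where 27.3% of all genes did. The lowest adjusted p was that of Fermt3 (edgeR, 0.629), which encodes kindlin-3, a protein that binds beta chains and switches integrins on. Fermt3 had 99.2, 141, 77.0 and 269 CPM in KO cells against 135, 183, 142 and 364 CPM in WT cells. KO cells were lower in every plate, as they were for 7.75% of all tested genes. The log2 fold change of Fermt3 was −0.49 (SE 0.158). The other gene at an unadjusted p under 0.05 was Rhoh, an atypical small GTPase of blood cells, named here after its values were seen. Rhoh had 40.6, 64.0, 31.7 and 52.3 CPM in KO cells against 6.41, 27.9, 15.7 and 47.0 CPM in WT cells. KO cells were higher in every plate, as they were for 7.83% of all tested genes. The fitted log2 change of Rhoh was 0.93, with an SE of 0.394 and an adjusted p of 0.744 by edgeR.

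Integrin activation and linkage had 14 tested genes, 4 above 0 and 10 below, with a median log2 fold change of −0.09. Besides Fermt3 these included Tln1, the talin that links beta chains to actin, at 194 ± 36.7 CPM in KO cells and 224 ± 55.7 CPM in WT cells (SD, n = 4 plates each). Zyx, a focal adhesion protein, had 153 ± 61.5 CPM in KO cells and 161 ± 73.2 CPM in WT cells. Among 5 tested integrin subunits outside the 8, Itga1, a collagen receptor chain, had 100.3 ± 15.6 CPM in KO cells and 122 ± 26.5 CPM in WT cells. Itga2b, the platelet integrin chain, had 36.9 ± 18.0 CPM in KO cells and 38.7 ± 18.3 CPM in WT cells, and Itga5, the fibronectin receptor chain, 45.6 ± 13.0 CPM in KO cells and 44.3 ± 23.9 CPM in WT cells. Of the 5 subunits 1 was above 0 and 4 were below. For Tln1, Zyx, Itga1, Itga2b and Itga5 the edgeR adjusted p was 0.868 or above.

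Genes that carry or regulate the signal of Cxcr4 counted 21 tested, 8 above 0 and 13 below, with a median log2 fold change of −0.09. Gnai2, the inhibitory G protein subunit to which chemokine receptors couple, had 272 ± 101 CPM in KO cells and 261 ± 121 CPM in WT cells. Rac2, a GTPase of migrating blood cells, had 261 ± 63.7 CPM in KO cells and 294 ± 52.0 CPM in WT cells. Gng5, a G protein gamma subunit, had 236 ± 40.0 CPM in KO cells and 191 ± 15.9 CPM in WT cells. Its fitted change was 0.30 on the log2 scale (SE 0.149, with an edgeR adjusted p of 0.801). Among the other chemokine and lipid receptors 3 were tested, 1 above 0 and 2 below. Ccr9 had 134 ± 42.7 CPM in KO cells and 131 ± 13.2 CPM in WT cells, Cx3cr1 50.2 ± 12.6 CPM in KO cells and 64.1 ± 5.07 CPM in WT cells, and S1pr4 36.9 ± 10.5 CPM in KO cells and 32.4 ± 19.9 CPM in WT cells. For each of these 6 genes the edgeR adjusted p was 0.801 or above.

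Selectins and the enzymes of selectin ligand synthesis had 8 tested genes, 3 above 0 and 5 below, and 4 of the 8 differed among plates. Cd34, a sialomucin that is low on dormant HSCs, had 31.6, 41.6, 245 and 364 CPM in KO cells against 22.4, 30.4, 312 and 345 CPM in WT cells. It was low in plates 350W and 351W and high in plates 352W and 353W in both genotypes (edgeR adjusted p among plates = 7.45e-09), the same plates in which Cd47 was high. Spn, the sialomucin CD43, had 155 ± 92.5 CPM in KO cells and 136 ± 49.3 CPM in WT cells, and St3gal4, a sialyltransferase of selectin ligands, 64.5 ± 42.0 CPM in KO cells and 72.0 ± 59.5 CPM in WT cells. The immunoglobulin superfamily, junction and tetraspanin list had 13 tested genes, 9 above 0 and 4 below, with a median log2 fold change of 0.13. Its named tetraspanins were Cd9 at 109 ± 28.5 CPM in KO cells and 86.4 ± 29.0 CPM in WT cells, Cd63 at 124 ± 115 CPM in KO cells and 96.1 ± 62.8 CPM in WT cells, and Cd81 at 127 ± 72.0 CPM in KO cells and 107 ± 68.5 CPM in WT cells. Cd63 and Cd81 were among the 8 genes of this list that differed among plates. Of 3 tested ligands and counter-receptors, 1 was above 0 and 2 were below. They were Mif, at 235 ± 43.8 CPM in KO cells and 236 ± 20.4 CPM in WT cells, Angpt1, at 188 ± 59.8 CPM in KO cells and 209 ± 36.8 CPM in WT cells, and Lama4, at 40.6 ± 12.9 CPM in KO cells and 48.4 ± 17.3 CPM in WT cells. Of the proteases only Adam10, a sheddase of adhesion proteins, was tested, at 52.5 ± 11.7 CPM in KO cells and 61.8 ± 11.7 CPM in WT cells.

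**Figure D4:**
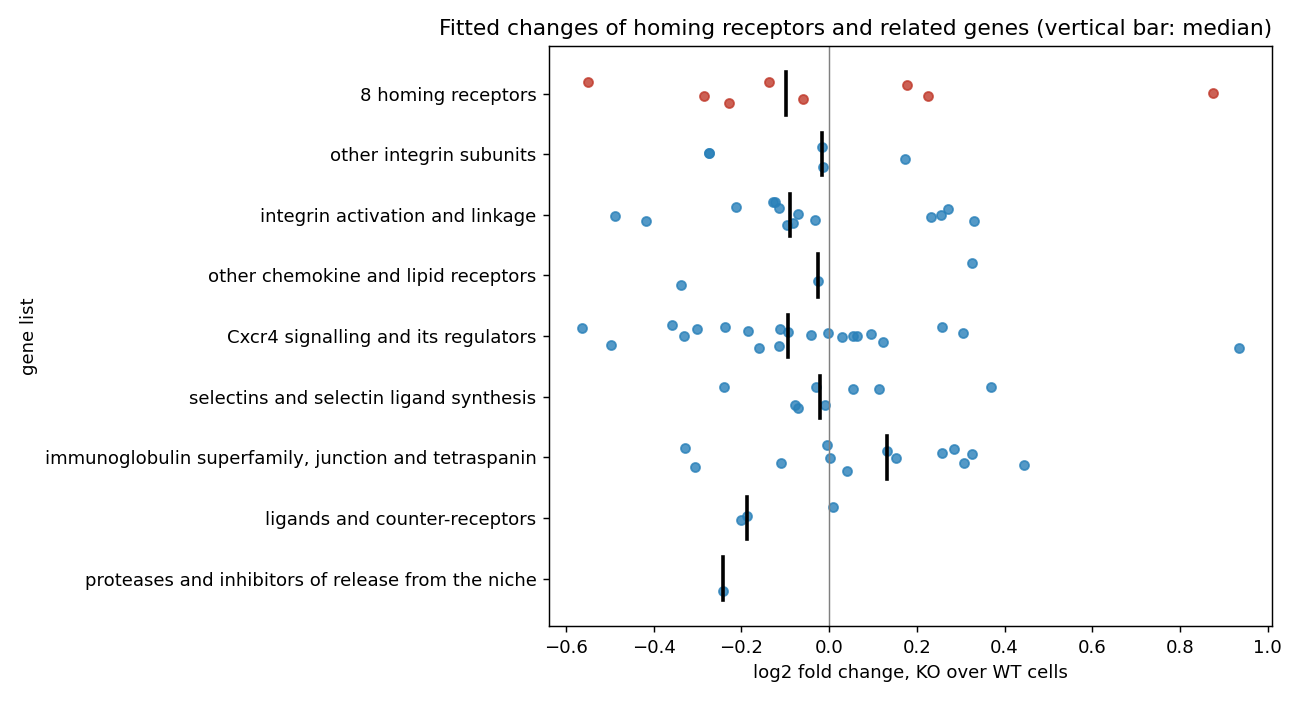
Log2 fold change of KO over WT cells (x axis) of every tested gene by list (y axis), the 8 receptors on top and the 8 pathway lists below, with a vertical bar at each list's median. No gene in the plot passed the test, and the median is −0.10 for the 8 receptors and −0.03 for the 68 related genes.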

How the data were processed

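HSCs of 4 MARS-Seq plates were analysed. The deposited tables hold raw whole-number UMI counts, 1 column per well. Build GRCm38.p4 and FastQC are named per the submitters' processing notes, while for the aligner and the collapsing of UMIs nothing is stated. The H3K27me3 region lists, in mm9, were not used here because no annotation of that build was at hand, nor were the bulk RNA-seq and ATAC-seq samples. The receptors, lists, tests and the plate block were chosen with earlier results of these data known, including how many genes are called with and without the block.

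Symbols were found for 25714 of 25832 IDs, and 16936 genes were in all 4 tables, with 0 entered where a table lacked a gene. No well name was shared between tables and no 2 kept wells held identical counts. Doublets were not called. Plates were grouped by title and cells by name prefix, and counts of cells with 500 or more UMIs were summed into 8 sums of 220821 to 510791 UMIs. These were fitted in edgeR 4.0.16 under R 4.3.3, after filterByExpr and TMM scaling, by quasi-likelihood F tests with the plate as a block, since KO and WT sums of 1 plate come from the same table. P-values were adjusted by Benjamini-Hochberg over 6541 genes, with a threshold of 0.05. The standard error is the log2 fold change over the square root of F. Intervals of counts and shares are exact (Poisson, Clopper-Pearson), at 95%, for counting error only. The fit was tested on simulated sums with 200 of 6541 genes changed. It recovered 14%, 48%, 68% and 84% of changes of 1.5, 2, 4 and 8 fold, with 5 false calls among 112. A receptor that did not pass may therefore still differ. Thinned shares used Python 3.11.15, numpy 2.4.6 and scipy 1.17.1, and the figures matplotlib 3.10.9. Genes named were the 8 members, the 3 highest of each related list, any related gene called, and the 3 genes most correlated with each of the 3 highest members. Alternatives were DESeq2 1.42.0, other scalings, cell and gene filters, no block, thinned sums, leaving out wells rich in immunoglobulin RNA, other depths of thinning and each plate left out.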

Additional observations from a re-analysis of the deposited data

Results flagged for a closer look

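Itga4 in KO cells of plate 351W, at 125 CPM, stood far from the other 3 plates of its genotype, which had 23.5 to 40.8 CPM. It was the single group past the cutoff among 16 groups tested, and chance gives about 1 in 20, so 1 flag is near what chance gives. WT cells of the same plate were also the highest of theirs, at 190.3 CPM, and fell just short of the cutoff. The gap to the next plate was 0.830 of the range in KO cells and 0.828 in WT cells, beside a cutoff of 0.829.

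The 49 KO wells and 3 WT wells left out for holding under 500 UMIs held 8 UMIs of the 8 receptors, in 16463 UMIs of all genes. This is 486 CPM (exact 95% Poisson interval 209.8 to 957), with the 631 CPM of the kept wells inside the interval.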

How the results depend on the processing

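No receptor and no related gene passed the test between KO and WT cells under any of the 13 alternatives run. The number of genes called over the whole table was small and unsteady: 6 in the main model, 26 with no filter on genes, 3 with no filter on cells, 1 by DESeq2 and 2 without wells of over 100 immunoglobulin UMIs. Leaving out 1 plate gave 2 to 8, with 3 without plate 351W and 2 without plate 353W. With no replicate block, the plate term being dropped, 0 genes were called. Same-plate sums share a plate, so the block was kept for every receptor. Among plates, 1785 genes were called, 2810 with no filter on genes, and 1230 to 1844 otherwise.

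Of 104 refitted log2 fold changes of the receptors, 98 kept their sign. Cxcr4 ranged from 0.40 to 1.47 (edgeR or DESeq2 adjusted p 0.722 or above), Itga4 from −0.66 to −0.45, Cd47 from −0.31 to −0.19, Selplg from 0.05 to 0.35 and Cd164 from 0.10 to 0.27. Reversed signs were Cd44 by DESeq2 (0.035), and with a plate left out Itga6 (−0.50 to 0.13), Itgb1 (−0.43 to 0.030) and Cd44 (−0.38 to 0.23). The cause was not tested. Differences in the share of cells reversed for Itga6 at 1000 UMIs (−3.94 points), without thinning (−3.96) and over all draws (−1.68), and for Cd164 at 1000 UMIs (−1.71) and without thinning (−1.12). With a plate left out they ran from −0.752 to 2.06 points for Itga6, from −0.741 to 2.20 points for Selplg and from −1.46 to 0.275 points for Cd44. The correlation of Itgb1 with Cd47 fell to −0.012 at 1000 UMIs, and at that depth 0 receptors were higher in G2/M cells in every plate, against 1 at 1500 UMIs.

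Depth and the number of plates limit these results. Cxcr4 rests on 54 UMIs in KO cells and 42 in WT cells, and 4 plates cannot give an exact p under 0.12.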
